A study of Mus musculus with 57 samples.

Results

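Rxfp1, Lrmda, Afm, Gm2956, AC161884.1, Tdo2 and Ankub1 are 7 genes whose counts differed between wild-type (WT) and P2RY12-deficient (KO) mouse microglia in one experiment of this study but mostly not in the other. They were selected on that contrast in both tables, so every KO-to-WT value below is a description of how they were chosen and not a test. All 7 are among the 53278 genes of the table with LPS-treated animals, and 6 are among the 50565 genes of the other table, where AC161884.1 was not found by symbol. The cells were CD11b-positive cells of mouse brain, labelled microglia, of WT animals and P2RY12-deficient littermates. Of the 33 libraries of the LPS experiment, 8 are WT ns, 9 WT LPS, 8 KO ns and 8 KO LPS, where LPS is bacterial lipopolysaccharide injected intraperitoneally (1 mg/kg) and ns is used as the labels write it. The sex experiment, without an LPS label, held 18 animals, of which 4 were WT and 5 KO among the males and likewise among the females. Strain, age and the construction of the knockout allele are not given in the sources used here.

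Microglia at rest carry much P2RY12, a nucleotide receptor that guides their processes toward damage, and inflammation is known to lower it. A knockout line and its WT littermates share much of their DNA, but a stretch around the targeted gene stays with the allele, and other stretches can differ between breeding lines. A gene on such a stretch can then differ between genotypes in one cohort and not in another. Single animals, and not whole groups, can then resemble the other genotype. No sequence variant was read here, so the part of strain background in these genes was not tested. What the tables do give is the level of each gene in each library, its place in the genome and its response to LPS.

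The members have unlike functions. Rxfp1 encodes the receptor for the hormone relaxin, which couples to cyclic AMP. Tdo2 encodes tryptophan dioxygenase, which opens the kynurenine pathway and is best known from liver. Afm encodes afamin, a secreted vitamin E carrier of the albumin family. Lrmda is named for its role in melanocyte differentiation, and Ankub1 for its ankyrin repeats and ubiquitin-like domain. Gm2956 and AC161884.1 carry only provisional names.

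On the mouse build GRCm39, as the table of the sex experiment gives it, Rxfp1 lies at chr3:79548910-79645258, Tdo2 at chr3:81865719-81883035 and Ankub1 at chr3:57574843-57599958. All 3 lie on the minus strand of the chromosome that holds P2ry12 at chr3:59123692-59170408. Relative to the start of P2ry12, Ankub1 starts at -1.55 Mb, Rxfp1 at 20.43 Mb and Tdo2 at 22.74 Mb. Gm2956 at chr14:19114974-19137685 and Lrmda at chr14:22069567-23106161 start 2.95 Mb apart, and Afm lies at chr5:90666808-90701403. Lrmda spans 1036.6 kb and overlaps 10 other annotated genes, whereas none overlaps the other 5 that have a position. In the table of the sex experiment whole gene spans were counted, introns included, so Lrmda counts there can hold reads of those 10 genes. Of the 50-base words in the transcripts of Gm2956, 97.1% also occur in transcripts of other genes, among them Gm3005, Gm8108 and Gm3752. Its counts cannot be assigned to a single copy with certainty. For Rxfp1, Lrmda, Afm and Tdo2 the shared percentage was 0, and for Ankub1 it was 0.0936.

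RefSeq promoters on GRCm38.p6, another build, were found for 5 members. The 250 bases before the start are shown for 3 genes, the chromosome 3 pair that differed in opposite directions and the liver carrier Afm whose level ran alongside that of Rxfp1. Capitals mark TATAAA, the TATA box, GGAAGT, the core of sites for ETS-family factors such as the myeloid factor PU.1, and GTTAAT, part of the site of the liver factor HNF1, each searched on both strands.
Tdo2, chr3:81975729-81975978, minus strand: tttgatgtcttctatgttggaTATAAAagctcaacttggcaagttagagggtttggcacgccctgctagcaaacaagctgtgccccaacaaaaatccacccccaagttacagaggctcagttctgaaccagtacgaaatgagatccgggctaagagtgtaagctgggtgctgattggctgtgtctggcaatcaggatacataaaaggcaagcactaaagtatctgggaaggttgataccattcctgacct
Ankub1, chr3:57692538-57692787, minus strand: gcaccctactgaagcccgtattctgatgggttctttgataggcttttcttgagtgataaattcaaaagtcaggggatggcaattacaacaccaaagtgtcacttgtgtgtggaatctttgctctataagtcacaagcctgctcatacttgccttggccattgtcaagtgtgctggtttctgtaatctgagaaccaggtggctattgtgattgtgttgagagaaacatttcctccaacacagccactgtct
Afm, chr5:90518699-90518948, plus strand: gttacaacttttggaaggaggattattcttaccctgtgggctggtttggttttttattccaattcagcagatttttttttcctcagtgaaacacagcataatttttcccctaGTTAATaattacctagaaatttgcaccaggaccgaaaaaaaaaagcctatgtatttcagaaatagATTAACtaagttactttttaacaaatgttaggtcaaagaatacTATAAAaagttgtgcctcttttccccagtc
The Afm window held TATAAA 30 bases before the start and 2 matches to the HNF1 word, one on each strand. The Tdo2 window held TATAAA only 229 bases before the start, and the Ankub1 window held none of the 3 words. The Lrmda and Gm2956 windows, which are not shown, held none either. The Gm2956 window is at chr14:3332319-3332568 on the plus strand, whereas on GRCm39 the gene is at chr14:19114974-19137685 on the minus strand. Whether both belong to the same copy was not resolved. The distance of Gm2956 from Lrmda given above is that on GRCm39. Over all 32851 promoter windows of the table, 12.4% held TATAAA on either strand, 19.7% held GGAAGT and 6.43% held GTTAAT. No match overlapped another. These words are matches of letters and not measured sites.

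The targeted gene was lower in KO than in WT within each treatment, except where WT libraries go against their labels. P2ry12 stood at 3007 to 5928 CPM (the count per mega of the library's TMM-scaled total) in the 8 WT animals of the sex experiment and at 309 to 526.4 CPM in its 10 KO animals. In the LPS experiment 4 WT libraries go against their treatment label, namely the 4 that bear the library number 2. WT ns 1 and WT ns 5 had Saa3, an acute-phase gene induced by LPS, at 1785 and 2496 CPM, against 1.53 to 64.5 CPM in the other WT ns libraries. WT LPS 1 and WT LPS 6 had it at 1.60 and 3.22 CPM, against at least 1421 CPM in the other WT LPS libraries. In the order just given these 4 libraries had P2ry12 at 482, 929, 4470 and 12180 CPM. The other WT libraries had 3523 to 5417 CPM in WT ns and 397 to 1065 CPM in WT LPS, and KO libraries had 586 to 1246 CPM in KO ns and 84.4 to 155 CPM in KO LPS. Results on LPS are therefore given with and without all libraries of number 2. The 5 libraries that correlated least with their group, called those that stand apart below, include 2 of these 4. They were WT ns 5, WT LPS 6, WT LPS 7, KO ns 6 and KO LPS 5, and they correlated with their group's median at r = 0.849 to 0.899, against 0.94 to 0.993 for the rest. WT LPS 8 and WT LPS 9 differed by 1.86 in chi-square per degree of freedom, against 8.32 or more for other pairs, and were counted as 1 sample, which leaves 32. The library names form 2 sets, each with all 4 groups. Xist was at 0.682 to 2.11 CPM in set 1 and at 788 to 2707 CPM in set 2, and Y-linked Ddx3y at 96.3 to 137 CPM and at 0 to 0.627 CPM. By these 2 genes set 1 was male and set 2 female, though the sex was not taken from a label. Sex and any other difference between the sets cannot be told apart. Total counts ran from 15.9 M to 168 M (M for mega) in the LPS experiment and from 58.5 M to 319 M in the sex experiment.

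Rxfp1 was nearly absent from every KO library of the LPS experiment. The lowest, median and highest levels were 0.664, 5.03 and 12.1 CPM in WT ns, 0.34, 0.633 and 4.44 CPM in WT LPS, 0, 0.0426 and 0.204 CPM in KO ns, and 0, 0.0414 and 0.182 CPM in KO LPS. No KO library reached the lowest WT library. The 8 KO ns libraries held 13 Rxfp1 counts in all and the 8 KO LPS libraries 11, against 1761 in WT ns and 248 in WT LPS. Averaged over ns and LPS, edgeR's quasi-likelihood fit gave a log2 fold change from WT to KO of -5.57 ± 0.54 (SE).

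The KO animals of the sex experiment also lay below the WT animals in Rxfp1, but less far and unevenly. Male WT animals 1, 3, 4 and 5 had 6.99, 7.22, 5.22 and 5.76 CPM, and female WT animals 1, 2, 3 and 5 had 3.59, 4.11, 3.40 and 4.06 CPM. Male KO animals 1 to 5 had 0.166, 0.616, 0.920, 2.37 and 2.90 CPM. Female KO animals 1 to 5 had 3.11, 0.603, 0.434, 3.23 and 2.29 CPM. Male KO 1, 2 and 3 and female KO 2 and 3 were at or under 0.920 CPM, and the other 5 KO animals were at 2.29 to 3.23 CPM. The lowest WT animal was a female at 3.40 CPM, and the lowest male WT animal was at 5.22 CPM. Among the KO animals the step from 0.920 to 2.29 CPM was 2.49-fold. The fold step from male KO 1 at 0.166 CPM to female KO 3 at 0.434 CPM was larger. The division into 5 and 5 is therefore a description and not a shown split. All 10 KO animals were below all 8 WT animals, yet the averaged log2 fold change of -1.56 ± 0.47 had an adjusted p of 0.276 in edgeR's fit. DESeq2 gave an adjusted p of 0.0458.

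Tdo2 was lower in KO too, with a smaller difference than Rxfp1. In the LPS experiment its lowest, median and highest levels were 1.10, 1.44 and 2.63 CPM in WT ns, 0.752, 1.29 and 4.71 CPM in WT LPS, 0.348, 0.654 and 1.29 CPM in KO ns, and 0.137, 0.370 and 1.20 CPM in KO LPS. The genotypes overlapped: KO ns 6 at 1.29 CPM and KO LPS 5 at 1.20 CPM, both among the 5 libraries that stand apart, exceeded several WT libraries, and WT LPS 3 at 0.752 CPM lay among the KO libraries. The averaged log2 fold change was -1.59 ± 0.24.

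Of the other experiment, male WT animals 1, 3, 4 and 5 had 1.63, 1.04, 1.01 and 1.18 CPM of Tdo2, and female WT animals 1, 2, 3 and 5 had 0.818, 0.873, 0.878 and 0.837 CPM. Male KO animals 1 to 5 had 0.284, 0.446, 0.143, 0.749 and 1.15 CPM. Female KO animals 1 to 5 had 0.504, 0.217, 0.380, 1.13 and 0.928 CPM. The 5 KO animals lowest in Tdo2 were the same 5 that were lowest in Rxfp1, and 3 of the other 5 KO animals lay inside the WT range. The margin in Tdo2 was narrow, from male KO 2 at 0.446 CPM to female KO 1 at 0.504 CPM. Over the 10 KO animals log2(CPM + 0.1) of Rxfp1 and of Tdo2 correlated at r = 0.739, which is given as a description of genes that start 2.32 Mb apart in shared libraries. Over those animals r was 0.583 for Rxfp1 and Ankub1, which lies on the other side of P2ry12, and -0.139 for Rxfp1 and P2ry12. The averaged log2 fold change of Tdo2 was -0.77 ± 0.33 with an adjusted p of 0.516.

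**Figure D1:**
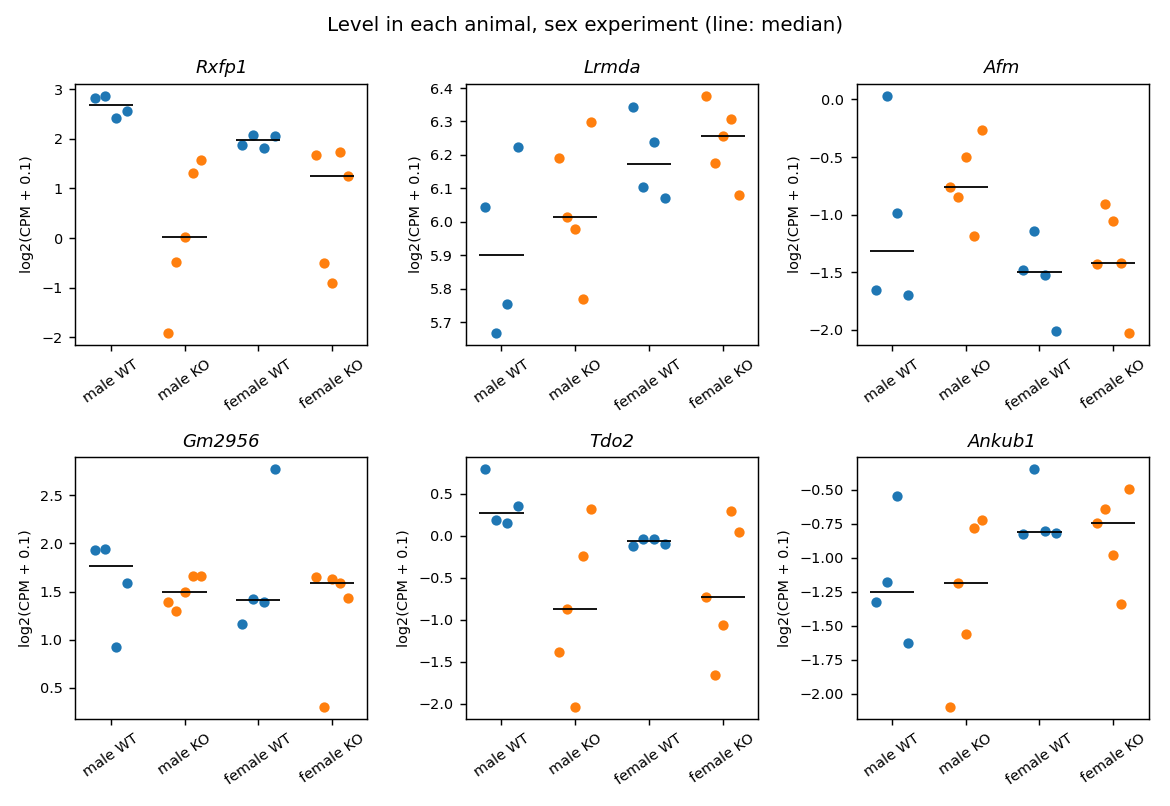
Level of 6 genes in each of the 18 animals of the sex experiment, as log2(CPM + 0.1), with a point per animal (blue WT, orange KO) and a line at the group median. In Rxfp1 all 10 KO animals lie below the 8 WT animals and spread from 0.166 to 3.23 CPM. The 5 animals lowest in Rxfp1 are also lowest in Tdo2, there by a narrow margin. Lrmda, Afm, Gm2956 and Ankub1 overlap between genotypes.

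Lrmda separated the genotypes of the LPS experiment without overlap, though narrowly. Its lowest, median and highest levels were 4.80, 6.47 and 15.3 CPM in WT ns, 5.55, 8.15 and 35.04 CPM in WT LPS, 1.02, 1.24 and 4.79 CPM in KO ns, and 1.28, 1.73 and 3.81 CPM in KO LPS. KO ns 6 and KO LPS 5 hold the highest KO values, and WT LPS 7 and WT LPS 6 the highest WT values. All 4 are among the 5 libraries that stand apart, and without those the KO libraries ended at 2.02 CPM. The averaged log2 fold change was -2.51 ± 0.25, or -2.31 without those 5 libraries. In the sex experiment the 8 WT animals had 50.7 to 81.1 CPM and the 10 KO animals 54.5 to 83.1 CPM, with a log2 fold change of 0.09 ± 0.08. Both tables count reads over different gene models, so these levels are not compared across them.

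Afm was lower in KO libraries of the LPS experiment and overlapped only where both genotypes were low. The lowest, median and highest levels were 0.487, 4.60 and 5.91 CPM in WT ns, 0.0537, 0.477 and 2.77 CPM in WT LPS, 0, 0.0553 and 0.783 CPM in KO ns, and 0, 0.031 and 0.182 CPM in KO LPS. KO ns 7 at 0.783 CPM stood above the other KO libraries, and WT LPS 3 at 0.0537 CPM and WT LPS 7 at 0.0705 CPM lay at KO levels. Afm was at 0 counts in 3 of 8 KO ns and 3 of 8 KO LPS libraries. Averaged over treatments the log2 fold change was -4.38 ± 0.61. The WT animals of the sex experiment had 0.148 to 0.924 CPM and KO animals 0.145 to 0.734 CPM, with a log2 fold change of 0.27 ± 0.31.

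Gm2956, whose reads other copies can share, ran from 0.256 through a median of 3.92 to 5.77 CPM in WT ns, from 0.253 through 0.443 to 5.57 CPM in WT LPS, from 0 through 0.344 to 0.791 CPM in KO ns, and from 0 through 0.0442 to 0.120 CPM in KO LPS. The WT LPS libraries other than WT LPS 1 and WT LPS 6, at 0.253 to 0.494 CPM, lay within the range of KO ns, while KO LPS lay below every WT library. Its averaged log2 fold change was -3.96 ± 0.52. Levels in the sex experiment were 1.80 to 6.72 CPM in WT and 1.13 to 3.07 CPM in KO animals, with a log2 fold change of -0.30 ± 0.23.

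Ankub1 and AC161884.1 were the members that were higher in KO. Ankub1 ran from 0.0345 through a median of 0.134 to 0.255 CPM in WT ns and from 0.407 through 0.747 to 1.07 CPM in KO ns, where the genotypes did not overlap. Under LPS it ran from 0 through 0.0537 to 0.314 CPM in WT and from 0.0426 through 0.198 to 0.441 CPM in KO, and they did. It was the rarest member, with 42 counts over the 8 WT ns libraries and 151 over the 8 KO ns libraries. KO exceeded WT by an averaged log2 fold change of 1.89 ± 0.34. Between the animals of the sex experiment it was -0.12 ± 0.27, with WT animals at 0.224 to 0.686 CPM and KO animals at 0.134 to 0.609 CPM.

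AC161884.1 ran from 0.132 through a median of 0.252 to 0.657 CPM in WT ns and from 1.16 through 1.95 to 2.59 CPM in KO ns, without overlap. Under LPS it ran from 0 through 0.510 to 1.88 CPM in WT and from 1.78 through 2.20 to 3.72 CPM in KO, and WT LPS 6 alone reached into the KO range. Over both treatments WT LPS 7 at 1.62 CPM also overlapped KO ns libraries. Without the 5 libraries that stand apart, WT ended at 0.887 CPM and KO started at 1.16 CPM. The averaged log2 fold change was 2.28 ± 0.29.

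**Figure D2:**
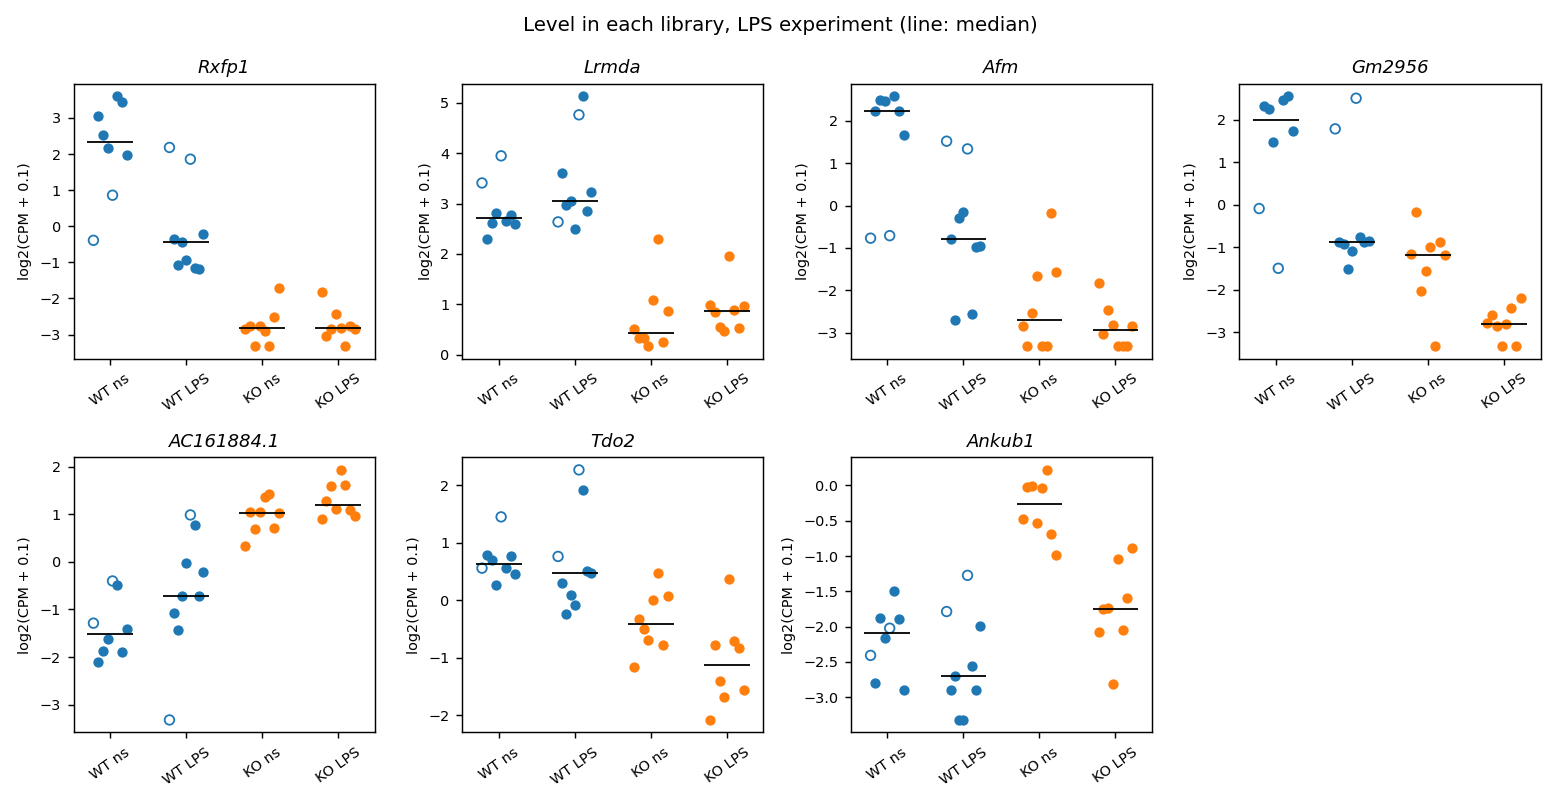
Level of the 7 genes in each of the 33 libraries of the LPS experiment, as log2(CPM + 0.1), with a point per library (blue WT, orange KO), a line at the group median and open circles for the 4 WT libraries of number 2. Rxfp1 and Lrmda do not overlap between genotypes, Ankub1 and AC161884.1 are higher in KO, and the open circles of Rxfp1, Afm and Gm2956 lie mostly with the other treatment.

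Across the whole LPS experiment 43 of 15857 genes tested (0.271%) were called between KO and WT averaged over ns and LPS, at an adjusted p under 0.05 in edgeR's quasi-likelihood test, and all 7 members, which were chosen on this contrast, are among them. At ns 18 genes (0.114%) were called, 6 of them members with Tdo2 the exception, and at LPS 20 genes (0.126%), 6 of them members with Ankub1 the exception. Without the libraries of number 2, 63 of 15816 genes (0.398%) were called in the average and all 7 members were among them. At ns 13 genes (0.0822%) were then called, 5 of them members, with Lrmda at an adjusted p of 0.0865. At LPS 14 genes (0.0885%) were called, 4 of them members, with Afm at an adjusted p of 0.13 and Gm2956 at 0.057. The log2 fold change of Gm2956 at LPS was -4.61 ± 0.80 with all libraries and -2.79 ± 0.57 without number 2. Within library set 1 the fit called 20 of 15719 genes (0.127%), 6 of them members, and within set 2 it called 2 of 16250 (0.0123%), of which Rxfp1 was the only member, with fold changes of the same sign in both. The log2 fold changes in set 1 and set 2 were -5.66 and -5.61 for Rxfp1, -2.53 and -2.40 for Lrmda, and -4.55 and -4.76 for Afm. They were -3.89 and -3.95 for Gm2956, 2.94 and 1.79 for AC161884.1, -1.64 and -1.43 for Tdo2, and 1.87 and 1.90 for Ankub1. All 7 passed the filter on low counts in the LPS experiment, Rxfp1, Afm and Gm2956 through their WT libraries and Ankub1 through its KO ns libraries. In the sex experiment all 6 passed it and none was called, against 137 of 31709 genes (0.432%), with Rxfp1 and Tdo2 under an unadjusted p of 0.05. Of the 43 genes called in the LPS experiment, 41 were tested in the sex experiment and 3 were called there, P2ry12, its neighbour P2ry13 and Gm43351.

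By complete separation of libraries, 2 of 15857 genes (0.0126%) had KO and WT libraries without overlap in the LPS experiment. These were Rxfp1 and Lrmda, which were also the members without overlap when number 2 was left out, against 3 genes of all (0.0189%). AC161884.1 joined them without the 5 libraries that stand apart, again against 3 genes of all (0.0189%). Among the animals of the sex experiment 27 of 31709 genes (0.0851%) did, and Rxfp1 was the only one among the 6 members.

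Single libraries were then compared with both genotypes. For each gene a library was taken as nearer to the other genotype when its log2(CPM + 0.1) was closer to the median of that genotype than to the median of the other libraries of its own. Of 231 pairs of library and gene, 36 were nearer to the other genotype, 17 in KO and 19 in WT libraries. Both medians were taken over ns and LPS together. No library behaved like the other genotype throughout: the most was 4 of 7 genes, in WT LPS 3 (Rxfp1, Afm, Gm2956 and Tdo2). The genes were chosen because these libraries differ by genotype, so this is a description. WT LPS 5 and WT LPS 7 followed with 3 genes each, and 7 libraries had 2. Of the pairs, 12 came from Gm2956, in 6 WT LPS, 1 WT ns and 5 KO ns libraries, and 5 from Ankub1 in KO LPS. Lrmda gave 2 pairs, KO ns 6 and KO LPS 5, and Tdo2 gave 5, which include those 2 libraries. No KO library was nearer to WT in Rxfp1 or in AC161884.1.

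When each library was compared only within its own treatment, 20 pairs were nearer to the other genotype, 13 of them among the 36 and 7 not. WT ns 1 then had the most, 3 genes (Rxfp1, Afm and Gm2956), and WT ns 5 had 2 (Afm and Gm2956). Both are number 2 libraries whose Saa3 was at the level of LPS. KO ns 6 and KO LPS 5 kept 2 each, Lrmda and Tdo2, and WT LPS 6 had AC161884.1 and Ankub1. WT LPS 7 had Afm and AC161884.1. Of its genes above, WT LPS 3 kept only Afm, and WT LPS 5 kept 0. The 6 libraries with 2 or more genes were thus WT ns 1 and the 5 that stand apart. In the sex experiment only Rxfp1 had genotype medians at least 1 apart on the log2 scale, and 5 of 18 animals, all KO, were nearer to WT, namely male KO 4 and 5 and female KO 1, 4 and 5.

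**Figure D3:**
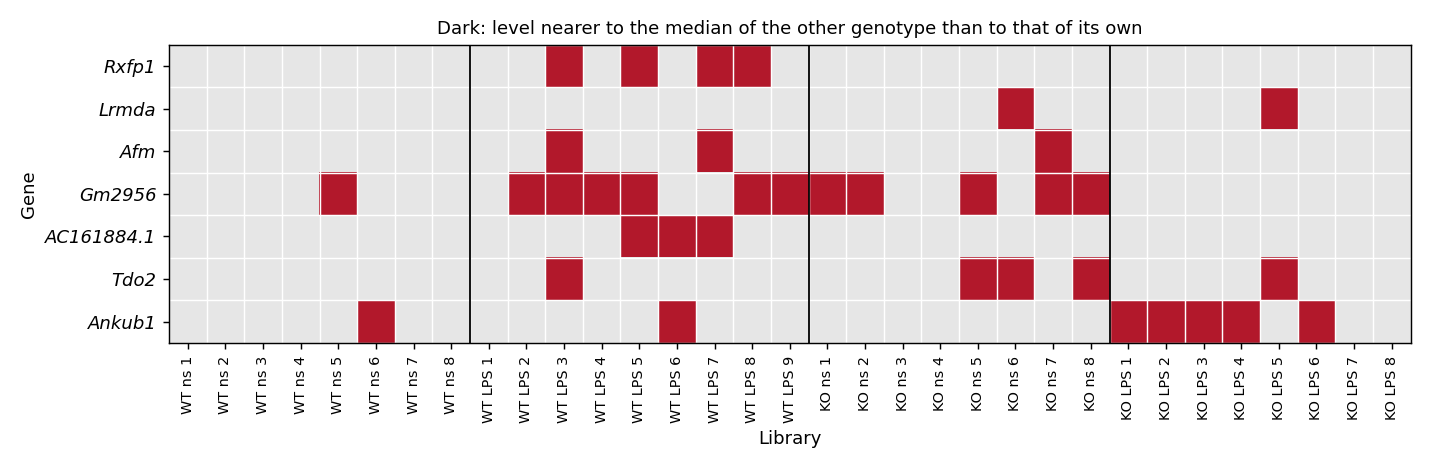
Map of the 33 libraries of the LPS experiment (columns, by group) against the 7 genes (rows), with a dark cell where the log2(CPM + 0.1) of a library is nearer to the median of the other genotype. The 36 dark cells are spread over 22 libraries, and the longest column, WT LPS 3, holds 4. Medians are over both treatments, and compared within its own treatment WT LPS 3 kept only Afm.

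LPS was not used to choose the genes, so its effect could be tested. In KO animals edgeR called 3542 of 15857 genes (22.3%) between LPS and ns, and among the 7 members it called Gm2956 and Ankub1. Gm2956 fell by 2.63 ± 0.81 on the log2 scale (SE) with an adjusted p of 0.0199, and Ankub1 fell by 1.76 ± 0.43 with an adjusted p of 0.004. A count of 2 in 7 lies near that background. The call of Gm2956 rests on 74 counts over the 8 KO ns libraries and 12 over the 8 KO LPS libraries. It was not called within set 1 (adjusted p = 0.0545) or set 2 (adjusted p = 0.493), and in a fit of the KO libraries alone it did not pass the filter. Ankub1 held 151 counts in KO ns, through which it passed the filter, and 48 in KO LPS. It was called within set 1 (adjusted p = 0.0158) but not within set 2 (adjusted p = 0.545). Without the libraries of number 2, 4628 of 15816 genes (29.3%) were called, and Afm at -2.80 ± 0.88 (adjusted p = 0.0198) and Tdo2 at -0.98 ± 0.36 (adjusted p = 0.0414) were called as well. Afm passed the filter through its WT libraries, and with all libraries its adjusted p was 0.164. Over the 8 KO ns libraries it held 40 counts, 21 of them in KO ns 7, and over the 8 KO LPS libraries 9. Of these 9, KO LPS 1, a library of number 2, held 4. KO LPS 5, also of number 2, had the highest Tdo2 of KO LPS at 1.20 CPM. With all libraries the adjusted p of Tdo2 was 0.134 in edgeR's test. The KO libraries of number 2 did not go against their labels, with Saa3 at 1.12 and 1.62 CPM in KO ns and at 1162 and 3706 CPM in KO LPS. Rxfp1, already near 0 in KO ns, gave -0.15 ± 0.88, Lrmda gave 0.14 ± 0.34 and AC161884.1 gave 0.40 ± 0.38.

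In WT animals edgeR called 0 genes (0%) between LPS and ns with all libraries, 3605 genes being under an unadjusted p of 0.05 and 732 called by DESeq2. Of the members, 5 were under an unadjusted p of 0.05 and DESeq2 called Rxfp1. Without the libraries of number 2, which include the 4 that go against their treatment label, edgeR called 5739 of 15816 genes (36.3%) and 5 of the 7 members. Rxfp1 fell by 3.84 ± 0.41 (adjusted p = 3.15e-07), Afm fell by 3.49 ± 0.59 (adjusted p = 7.81e-05) and Gm2956 fell by 3.44 ± 0.44 (adjusted p = 3.37e-06). The levels of Rxfp1 were then 3.86 to 12.1 CPM in 6 WT ns libraries and 0.34 to 0.757 CPM in 7 WT LPS libraries. Those of Gm2956 were 2.70 to 5.77 and 0.253 to 0.494 CPM. How many of all genes separate these libraries as far was not counted. The medians of Rxfp1, Afm and Gm2956 were 6.93, 5.01 and 4.76 CPM in WT ns. They were 0.42, 0.417 and 0.442 CPM in WT LPS, and lower in both KO groups. Rxfp1, Afm and Gm2956 thus passed the filter mainly through WT ns, the higher side of this comparison. Their p-values do not allow for that. Lrmda rose by 1.01 ± 0.38 (adjusted p = 0.0415) and AC161884.1 by 1.37 ± 0.36 (adjusted p = 0.00481). Without the 5 libraries that stand apart, 3556 of 16010 genes (22.2%) were called, only Rxfp1, Afm and Gm2956 of these members among them, and Lrmda was at 0.26 ± 0.20. Ankub1 stood at -1.46 ± 0.62 (adjusted p = 0.0676) and Tdo2 at -0.05 ± 0.33 without number 2.

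Markers of some other cell types were lower under LPS in the same libraries. Without number 2 the summed level of 3 endothelial markers was 53 to 65.3 CPM in WT ns and 14.9 to 36.3 CPM in WT LPS, with 3 of 3 called lower. In KO it was 67.8 to 87.1 CPM at ns and 24 to 50.8 CPM at LPS, with 2 of 3 called lower. The sum of 4 markers of border macrophages was 208 to 617 CPM in WT ns and 73.6 to 285 CPM in WT LPS, and 161 to 502 CPM in KO ns and 72.6 to 211 CPM in KO LPS, with 2 of 4 called lower in each genotype. Of 4 oligodendrocyte markers tested, 2 were called lower in WT and 1 in KO. Their sum was 110 to 123 CPM in WT ns and 62 to 86.9 CPM in WT LPS. In KO it was 74.8 to 116 CPM at ns and 66.7 to 88.5 CPM at LPS. Over all 15816 genes, 3059 were called lower in WT and 2471 in KO. Of 9 microglial markers 6 were called lower in each genotype too. The part of these cells in the lower Rxfp1, Afm and Gm2956 under LPS was not tested.

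The difference between genotypes in the response to LPS was called for 0 genes in edgeR's interaction test, with 1698 under an unadjusted p of 0.05 and none of the members among them. DESeq2 was not run on it. For Rxfp1 the interaction was 1.95 ± 1.15 (adjusted p = 0.534) with all libraries and 2.99 ± 0.95 (adjusted p = 0.457) without number 2. In that fit 0 of 15816 genes were called and 1574 were under an unadjusted p of 0.05, Rxfp1 and AC161884.1 among them.

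**Figure D4:**
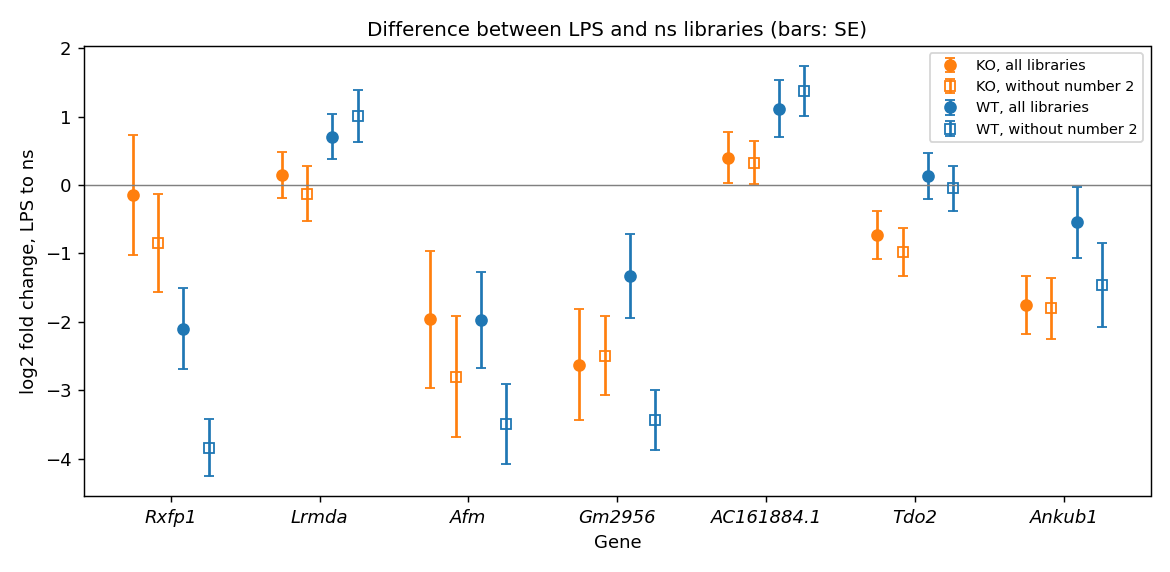
Log2 fold change from ns to LPS of the 7 genes in KO (orange) and WT (blue) libraries of the LPS experiment, with all libraries (filled circles) and without those of number 2 (open squares), and SE as bars. Rxfp1, Afm and Gm2956 move further below 0 in WT once number 2 is left out, while Ankub1 stays near -1.8 in KO.

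Sex, also not used in the choice, was tested in the sex experiment. Between females and males edgeR called 273 of 31709 genes (0.861%) and 0 of 6 members, with Afm and Lrmda under an unadjusted p of 0.05. DESeq2 called 0 members too. Afm gave -0.78 ± 0.31 (adjusted p = 0.305) and Lrmda 0.22 ± 0.08 (adjusted p = 0.264). The KO-to-WT log2 fold change of Rxfp1 was -2.16 ± 0.67 in males and -0.96 ± 0.66 in females, and the difference between the sexes was 1.20 ± 0.93 (adjusted p = 0.999).

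On chromosome 3 the 123 genes tested within 25 Mb of the start of P2ry12 included 7 of the called genes (5.69%), against 2 of 519 (0.385%) on the rest of the chromosome and 32 of 13116 (0.244%) on other chromosomes. Since 3 of the 7 are members chosen on this contrast, the share is given as a description. By distance, 4 of 33 genes were called at 0 to 5 Mb, 1 of 35 at 5 to 10 Mb, 0 of 4 at 10 to 15 Mb, 0 of 17 at 15 to 20 Mb and 2 of 34 at 20 to 25 Mb. The 2 farthest were Rxfp1 and Tdo2. The other called genes were P2ry12, its neighbour P2ry13 at -1.60 ± 0.32, the cystine transporter gene Slc7a11 at -1.71 ± 0.36 and the kinase gene Dclk1 at 1.08 ± 0.25. The sex experiment had 5 of these 123 genes called, and none was Rxfp1, Tdo2 or Ankub1. There P2ry13 was at -1.96 ± 0.14, Slc7a11 at -0.84 ± 0.43 and Dclk1 at -0.02 ± 0.14.

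**Figure D5:**
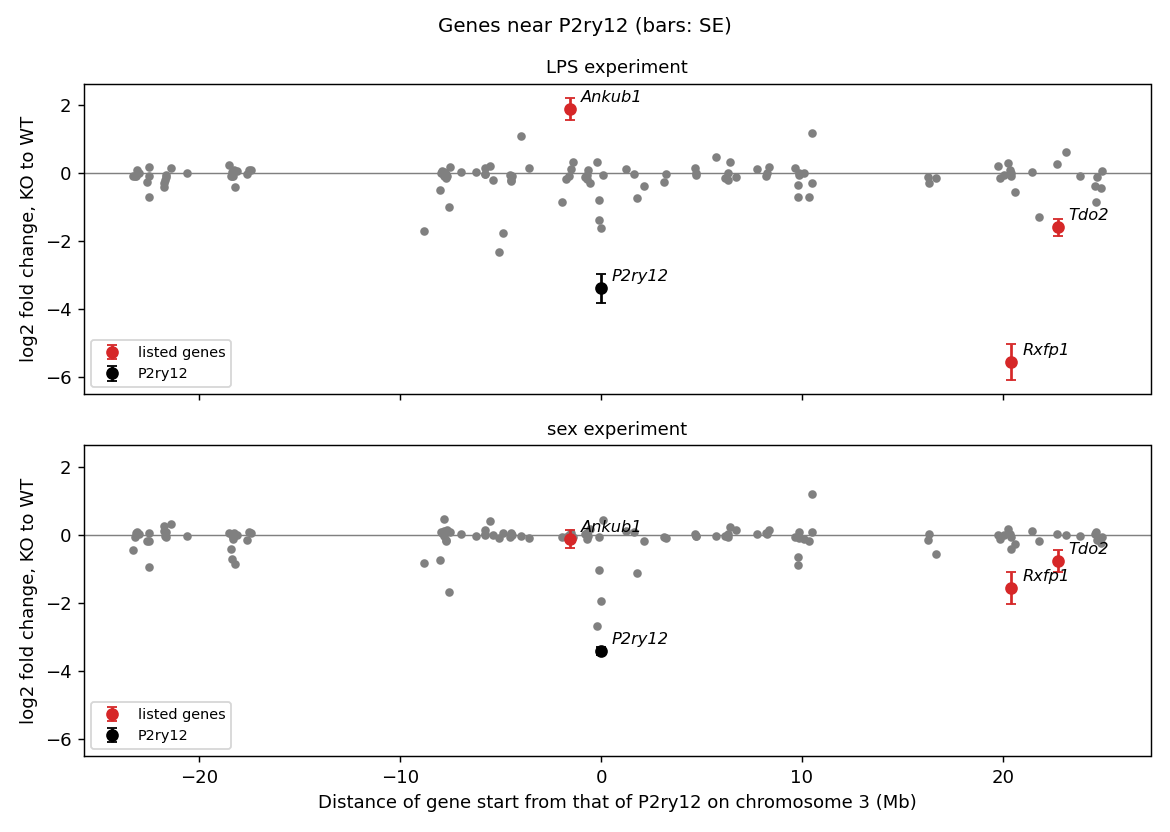
Log2 fold change from WT to KO of the 123 tested genes within 25 Mb of P2ry12 against the distance of their start from it in Mb, in the LPS experiment (top) and the sex experiment (bottom), with SE bars for P2ry12 (black) and the 3 listed genes (red). Rxfp1 moves from -5.57 to -1.56 and Tdo2 from -1.59 to -0.77 between the panels, and Ankub1 from 1.89 to -0.12, while P2ry12 is at -3.40 and -3.42.

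The nearest tested genes on either side of the 6 placed members were not called between genotypes. Next to Rxfp1, 4930579G24Rik stood at -0.08 ± 0.20 and Tmem144, 171 kb away, at -0.57 ± 0.25. Next to Tdo2, the cathepsin gene Ctso was at 0.28 ± 0.21 and Map9 at 0.62 ± 0.21. Commd2 and Rnf13 beside Ankub1 were at -0.08 ± 0.21 and 0.12 ± 0.24. Beside Lrmda, Zfp503 was at -0.60 ± 0.28 and Kcnma1 at -0.60 ± 0.38. Afp, 28.2 kb from its relative Afm, was at 0.01 with an adjusted p of 1, and the platelet factor gene Pf4 on the other side at -1.12 ± 0.44. Gm3005 and D830030K20Rik beside Gm2956 were at -0.26 ± 0.34 and -0.22 ± 0.40.

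The genes whose CPM ran most alike with the members over the 32 samples, by Spearman's rho, were often other members. Afm (0.887), Gm2956 (0.789) and Tmem229a (0.754) ran with Rxfp1. Rxfp1, Gm2956 (0.737) and Rfx2 (0.728) ran with Afm, and Rxfp1, 9430025C20Rik (0.761) and P2ry12 (0.758) with Gm2956. The chemokine receptor gene Ccr1 (0.843), its relative Ccr1l1 (0.786) and Tdo2 (0.767) ran with Lrmda. P2ry13 (0.818), Gpr183 (0.815) and Tbce (0.77) ran with Tdo2. Chn1 (0.826), Apob (0.819) and Lgals9 (0.815) ran with AC161884.1, and the glutamate transporter gene Slc1a3 (0.821), Aig1 (0.783) and Serpine2 (0.778) with Ankub1. Genotype and treatment differ among these 32 samples, so the values describe shared group differences as well as shared spread.

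Other genes of the members' pathways were not called between genotypes. In the list of 10 relaxin family genes 2 were tested in the LPS experiment, Rxfp1 and the hormone gene Insl3, which was at 0.01 between genotypes (adjusted p = 1). In the list of 21 kynurenine and tryptophan genes 13 were tested, of which only Tdo2 was called between genotypes, and the list's median of -0.11 stood beside -0.04 over all genes. Under LPS in KO, 3 of these 13 rose and 2 fell. The aryl hydrocarbon receptor gene Ahr rose by 1.42 ± 0.36 (adjusted p = 0.00529) and the transporter gene Slc7a5 rose by 1.06 ± 0.33 (adjusted p = 0.021). Qprt, which makes a precursor of NAD from the pathway's product, fell by 3.11 ± 0.56 (adjusted p = 0.000494), and Kmo fell by 1.67 ± 0.61 (adjusted p = 0.0463).

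Of the 10 genes of the albumin family and of vitamin E transport 8 were tested, and only Afm was called between genotypes. This list's median was -0.51 beside -0.04 over all genes, with the scavenger receptor gene Cd36 at -1.15 ± 0.46 (adjusted p = 0.452) and the lipid transfer gene Pltp at -0.93 ± 0.37 (adjusted p = 0.462). Under LPS in KO, Alb, the albumin gene, fell by 2.19 ± 0.57 (adjusted p = 0.0062) and Cd36 fell by 2.08 ± 0.67 (adjusted p = 0.0239). Of 23 genes of melanosomes and related organelles 17 were tested, and only Lrmda was called between genotypes, with a list median of 0.03. Rab32 rose by 1.39 ± 0.33 under LPS in KO (adjusted p = 0.00304), Ap3b1 by 0.50 ± 0.15 (adjusted p = 0.0182) and Hps5 by 0.55 ± 0.19 (adjusted p = 0.0324), while Dtnbp1 fell by 0.34 ± 0.12 (adjusted p = 0.0466). Of 13 ankyrin and ubiquitin-domain genes all were tested, and only Ankub1 was called between genotypes, with a list median of 0.01. Ubl3 at -0.74 ± 0.15 (adjusted p = 0.000907) and Asb3 at -1.11 ± 0.38 (adjusted p = 0.0332) were called with it under LPS in KO.

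Markers of other cells were read beside these results. The summed level of 9 microglial markers was 19700 to 38900 CPM in WT ns, 16400 to 37600 in WT LPS, 33200 to 51500 in KO ns and 21200 to 27000 in KO LPS, with 0 of 9 called between genotypes. Of 7 hepatocyte markers, read because Afm and Tdo2 are best known from liver, 4 did not pass the filter. Of these, Serpina1a was at 0 in all 33 libraries, Cyp2e1 in 31, Tat in 30 and Apoa1 in 28. The sum below therefore holds only Alb, Apoa2 and Ttr and is no full reading of liver RNA. The hepatocyte sum ran from 1.72 to 3.51 CPM in WT ns, 0.408 to 14.7 in WT LPS, 1.12 to 21.3 in KO ns and 0.554 to 28.6 in KO LPS. The 3 libraries with the highest sum, KO LPS 5, KO ns 6 and WT LPS 7, had Afm at 0, 0 and 0.0705 CPM and Tdo2 at 1.20, 1.29 and 3.67 CPM. These Tdo2 levels were the highest of KO LPS, the highest of KO ns and the second highest of WT LPS. All 3 libraries are among the 5 that stand apart, with TMM factors of 0.91, 0.731 and 0.674 in that order. The part of liver RNA in either gene was not tested. Of 5 melanocyte markers 1 passed the filter, and Tyrp1 was at 0 in all 33 libraries. The sum of 8 neuronal markers had medians of 5.29 CPM in WT ns and 6.71 in WT LPS, and of 10.5 in KO ns and 11.4 in KO LPS, with 1 marker, Nrgn, called higher in KO. The ranges were 2.92 to 8.54, 4.36 to 20.9, 4.49 to 16 and 7.97 to 23.9 CPM. Its part in the higher Ankub1 and AC161884.1 of KO was not tested. Neutrophil markers ran from 236 to 13700 CPM over the libraries, with 0 of 6 called, and WT ns 3 and WT ns 8, the highest in WT ns, had Rxfp1 at 5.67 and 3.86 CPM. In bulk RNA fewer cells of a type and less RNA per cell cannot be told apart.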

How the data were processed

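RNA of CD11b-positive mouse brain cells was sequenced from poly(A)-selected libraries, and the authors deposited raw read counts per gene in 1 table for each experiment. Per the submitters' processing notes, FastQC, STAR 2.6.1, featureCounts of Subread and DESeq2 were used with the build GRCm39. Low counts were even in 79% to 89.2% of cases in the sex table and in 39.7% to 45.6% in the LPS table, so the tables were counted differently and no model was fitted to both. The strand setting of the counting is not given in the sources used here.

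Columns were matched to labels by name, with 0 left over, and 6 repeat libraries of the sex experiment were not analysed here. The members and gene lists were chosen with earlier results of these data known. Levels are CPM on TMM-scaled totals. Genes were filtered with filterByExpr and tested with edgeR 4.0.16 in R 4.3.3 (quasi-likelihood F test, robust, a mean per group, library set as covariate in the LPS experiment), with Benjamini-Hochberg adjustment over all genes and calls at 0.05. WT LPS 8 and WT LPS 9 were summed. Where no label says that libraries came from separate animals, p-values cover only the spread between libraries. Replicates varied by 46.1% in the LPS and 35.3% in the sex experiment (biological coefficient of variation), so genes of a few counts per library are imprecise.

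On counts simulated from the LPS experiment over 15857 genes, the KO-to-WT test recovered 78% of genes changed by 1 on the log2 scale and 96% of those changed by 2. The LPS test in KO recovered 38% and 84%. The changed genes were drawn from those with a mean over 1 CPM, and all groups started from the same mean. Ankub1 lies under that level, and so do Rxfp1, Afm, Gm2956 and Tdo2 in KO and AC161884.1 in WT. The rates therefore do not carry over to these genes.

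Named genes are all members, P2ry12, the 3 genes of highest Spearman rho with each member, the nearest tested gene on each side, the called genes within 25 Mb of P2ry12, and up to 5 genes per list with the smallest p for LPS in KO or for genotype. P2ry13, Gm43351, Saa3, Xist, Ddx3y and single markers outside this rule were named after their values were seen. Libraries were compared with genotype medians where these differed by at least 1 on the log2 scale. Shared words of 50 bases were counted in GENCODE M21 transcripts. Alternatives were DESeq2 1.42.0, RLE scaling, no filter or a mean of 5 CPM, no set covariate, each set alone, a replicate block, the pair kept apart, only the groups compared, number 2 left out and, in the sex experiment, each animal left out. Leaving out the 5 libraries that stand apart was chosen after seeing the data.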

Additional observations from a re-analysis of the deposited data

Results flagged for a closer look

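In 11 of 52 groups of 4 to 10 samples that were examined, 1 sample lay far from the others by Dixon's criterion. For normally distributed values chance meets this criterion in about 1 group in 20. It was applied to CPM, which lay near 0 in several groups, so that rate need not hold here. Of the 11 groups, 8 were in the LPS experiment. KO ns 6 had Lrmda at 4.79 CPM against 2.02 for the next library, and KO LPS 5 had Lrmda at 3.81 CPM against 1.87 and Tdo2 at 1.20 CPM against 0.515. WT ns 5 had Tdo2 at 2.63 CPM against 1.63. These 3 libraries belong to the 5 that stand apart. KO ns 7 had Afm at 0.783 CPM against 0.238, and KO ns 8 had Rxfp1 at 0.204 CPM against 0.0746. KO LPS 1 had both Rxfp1 and Afm at 0.182 CPM, against 0.0853 and 0.0796, which is 4 counts of each. In the sex experiment, female WT 5 had Gm2956 at 6.72 CPM against 2.59, female KO 2 had it at 1.13 CPM against 2.596, and female WT 2 had Ankub1 at 0.686 CPM against 0.473.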

How the results depend on the processing

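Counts of members called were recomputed under each alternative. With the 5 CPM filter, which leaves 1 member to test, the calls were 0 for LPS in KO and 1 each for KO versus WT at ns, at LPS and averaged. Library set 1 alone gave 1 for LPS in KO (of 4815 genes called in all), 2 at ns (of 8) and 1 at LPS (of 10). Set 2 alone gave 0 for these 3, where it called 0 genes of all, and 1 averaged (of 2). Fits of only the groups compared gave 1 for LPS in KO and 1 at LPS, with fewer members tested. Without number 2 there were 4 for LPS in KO and 5 for LPS in WT, and without the 5 libraries that stand apart 3 for LPS in WT. DESeq2 gave 1 for LPS in WT and 1 for KO versus WT over the sexes. Apart from fewer samples or genes tested where stated, the cause was not tested. With the pair kept apart, LPS in WT gave 36 calls over all genes and 0 members. Leaving out each animal of the sex experiment gave 0 members for genotype and for sex each time.

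Pairs of library and gene nearer to the other genotype numbered 12 with a pseudocount of 1 CPM (which leaves 3 genes), 63 when counted as inside the other genotype's range and 20 within treatment, against 36.

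The sign turned only in values that were not called. LPS in KO turned to 1.06 for Rxfp1 in set 1 and to -0.13 for Lrmda without number 2. LPS in WT for Tdo2 turned to -0.31 in set 1, -0.0481 without number 2 and -0.30 without the 5 libraries. With single animals left out, the female-to-male value ran from -0.28 to 0.10 for Rxfp1, from -0.22 to 0.14 for Gm2956 and from -0.334 to 0.0577 for Tdo2, and the genotype value over the sexes from -0.231 to 0.0580 for Ankub1.

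Same-numbered samples were not taken to pair, since no label says that they do and not every pair correlated over 0.1. Their deviations did in 34 of 45 pairs of the LPS experiment (mean r of 0.284, against 0.0336 for other pairs) and in 13 of 24 of the sex experiment (0.073 against -0.015), and 12 of 31 and 3 of 18 samples correlated best with their own number. The replicate block gave 3 members for LPS in KO, 0 for LPS in WT, 6 at ns, 4 at LPS (Afm at an adjusted p of 0.171 and Gm2956 at 0.0557 were not called), 7 averaged and 0 for both contrasts of the sex experiment, and turned the female-to-male value of Rxfp1 to 0.0367.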
